A study of Mus musculus with 6 samples.

Results

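The cadherins and protocadherins are calcium-dependent adhesion receptors of the cell surface, and they were read here in freshly sorted cardiac side population cells of wt and flt3L-/- mice. The group was formed by symbol: every protein-coding gene named Cdh with a number, or Pcdh with any suffix, was taken from the gene counts. This gave 92 members among 50600 genes in the table, of which 21764 were protein-coding. There were 23 cadherins, 57 clustered protocadherins of the Pcdha, Pcdhb and Pcdhg families and 12 other protocadherins. A pair of Ensembl entries, ENSMUSG00000102206 and ENSMUSG00000007440, both carry the symbol Pcdha11 and count as separate members. Expression high enough for the test, a CPM above 1 in at least 2 libraries, was met by 73 members: 9 cadherins, 54 clustered protocadherins and 10 other protocadherins. CPM is a read count scaled in the usual way to the library's reads of protein-coding genes and between libraries by TMM factors, which keeps the effect of gene length, so that levels of different genes are ranked after division by their exon length in kilobases (CPM per kb).

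The question of the experiment was whether gene expression in the cardiac side population differs when Flt3 ligand is absent. Side population cells are heart cells that pump out the dye Hoechst. The wt libraries came from C57BL/6NRj mice and the flt3L-/- libraries from C57BL/6Flt3Ltml/mx mice, a knock-out line that the labels place on a C57BL/6N background; the mice were 8 to 12 wk old, and neither a treatment nor their sex is given. Each of the 6 libraries (3 wt, 3 flt3L-/-) held pooled cells of 4 mice, taken from heart suspensions depleted of cardiomyocytes and erythrocytes, and a wt and an flt3L-/- sort were made on each of 3 days, which gives 3 pairs (pairs 1 and 2 were sorted 2 days apart and pair 3 about a year later). The libraries held 24370913 to 31145519 counted reads, and their pairwise correlation over genes ran from 0.914 to 0.976. Flt3l, the targeted gene, was read at 8.66, 10.8 and 12.1 CPM in the wt libraries and at 13.6, 12.4 and 14.4 CPM in the libraries labelled flt3L-/-, so its read count did not check the labels, and every direction below is that between libraries so labelled. The efflux pump gene Abcg2 was present in every library at 146.6 to 274 CPM and Ly6a, which encodes Sca1, at 522 to 1789 CPM. Ptprc, the leukocyte marker CD45, was uneven, at 96.3, 246 and 595 CPM in wt and 101, 236 and 79.2 CPM in flt3L-/-, highest in wt of pair 3.

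Cadherins hold cells together by binding the same cadherin on the next cell through calcium-rigidified extracellular repeats. Classical cadherins pass this force to actin through β-catenin, α-catenin and p120-catenin, and which of them a cell carries follows its lineage: VE-cadherin (Cdh5) in endothelium, N-cadherin (Cdh2) in cardiomyocytes and many mesenchymal cells, cadherin-11 (Cdh11) in fibroblasts. Protocadherins share the repeats but not the catenin-binding tail. The clustered protocadherins are best known from neurons, where each alpha or gamma gene splices its own first exon to a set of 3 exons common to the whole cluster, while each beta gene stands alone. The other, non-clustered protocadherins are separate genes whose tails reach actin regulators.

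Promoter windows (250 bases before to 50 after the annotated start, RefSeq, GRCm38.p6) were at hand for 22 of 91 member symbols. Those of 3 non-clustered protocadherins are shown because Pcdh18 and Pcdh9 were highest and lowest in the same libraries, whereas Pcdh17 varied less between libraries. Capitals mark GGAAG (or its reverse complement CTTCC), the core that ETS factors bind, and CAGGTG (or CACCTG), the E-box that Snail and Zeb factors bind; the motifs do not overlap each other. Pcdh18 is read from the minus strand of chr3:49757267-49757566, Pcdh9 from the minus strand of chr14:93890630-93890929 and Pcdh17 from the plus strand of chr14:84443313-84443612.
Pcdh18: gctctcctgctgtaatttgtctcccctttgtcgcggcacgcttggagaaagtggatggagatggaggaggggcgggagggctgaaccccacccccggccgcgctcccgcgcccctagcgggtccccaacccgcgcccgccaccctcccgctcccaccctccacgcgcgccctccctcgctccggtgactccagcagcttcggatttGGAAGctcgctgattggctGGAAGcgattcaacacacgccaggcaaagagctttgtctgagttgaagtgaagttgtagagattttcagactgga
Pcdh9: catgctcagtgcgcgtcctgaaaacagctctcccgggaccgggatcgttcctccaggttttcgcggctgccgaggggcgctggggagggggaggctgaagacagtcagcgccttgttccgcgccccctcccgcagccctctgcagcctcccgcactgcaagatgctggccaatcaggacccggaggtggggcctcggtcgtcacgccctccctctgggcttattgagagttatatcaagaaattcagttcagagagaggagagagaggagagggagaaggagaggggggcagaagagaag
Pcdh17: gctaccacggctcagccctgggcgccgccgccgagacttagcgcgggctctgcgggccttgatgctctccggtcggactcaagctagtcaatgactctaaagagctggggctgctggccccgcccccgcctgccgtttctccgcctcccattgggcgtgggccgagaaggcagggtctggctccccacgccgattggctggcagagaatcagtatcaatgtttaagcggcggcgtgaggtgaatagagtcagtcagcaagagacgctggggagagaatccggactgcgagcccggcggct
The Pcdh18 window held GGAAG at 2 places, and neither motif was found in the windows of Pcdh9 and Pcdh17. Of all 32851 windows of the same length, 71.4% held GGAAG or its complement and 20.2% held CAGGTG or its complement.

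Among the cadherins, Cdh5 and Cdh13 supplied most of the reads. Together they made up 71.6%, 84.4% and 86.9% of the summed cadherin CPM in the wt libraries and 85.7%, 84.1% and 92.4% in the flt3L-/- libraries, pairs in order. Cdh5, VE-cadherin, the adherens junction cadherin of endothelium, was read at 256, 355 and 286 CPM in wt and at 399, 271 and 223 CPM in flt3L-/- (ENSMUSG00000031871, chr8:104101625-104144511 in mm10). Its highest and its lowest value were both flt3L-/- libraries, and the groups overlapped. Per kilobase it stood at 71.1 ± 12.1 (SD, n = 3) in wt and 70.8 ± 21.6 (n = 3) in flt3L-/-, and its lowest library, 53.1, lay above the highest library of every other cadherin.

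Cdh13, T-cadherin, lacks the catenin-binding tail, is held in the membrane by a lipid anchor and binds adiponectin. It was read at 198 CPM in wt of pair 1, 270 in pair 2 and 254 in pair 3, against 266, 243 and 499 CPM in flt3L-/-. The flt3L-/- library of pair 3 held the highest value by far, and there Cdh13 was 63.8% of all cadherin CPM and Cdh5 28.6%, whereas Cdh5 was the larger part in the other 5 libraries. These are shares of reads, and the exons of Cdh13 span 11233 bases against 4203 for Cdh5. Per kilobase Cdh5 stayed above Cdh13 in every library, 21.4 ± 3.35 (SD, n = 3) for Cdh13 in wt and 29.9 ± 12.6 (n = 3) in flt3L-/-.

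Cdh11, the cadherin of fibroblasts and other mesenchymal cells, came next. Its values were 122, 47.8 and 38.3 CPM in wt and 40.0, 44.0 and 26.3 CPM in flt3L-/-, so that the wt library of pair 1 stood alone at the top and the other 5 ran from 26.3 to 47.8. Cdh23, a very long cadherin known from the tip links of inner ear hair cells, was read at 23.4, 44.6 and 22.2 CPM in wt and at 51.0, 26.5 and 16.9 CPM in flt3L-/-. Cdh19, found in Schwann cells and their precursors, was read at 20.9, 9.69 and 4.39 CPM in wt and at 9.61, 14.8 and 6.88 CPM in flt3L-/-, with overlapping groups. These levels lay between 1.03 and 4.89 CPM per kb for Cdh19 and reached 3.01 for Cdh23, with overlapping ranges.

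N-cadherin, E-cadherin and the remaining cadherins were low. Cdh2, N-cadherin, was read at 9.75, 6.09 and 6.25 CPM in wt and at 5.90, 4.58 and 4.43 CPM in flt3L-/-, which made it the 1 tested member whose 3 flt3L-/- libraries all lay below the 3 wt libraries; 2.92% of all tested genes do so. Cdh1, the E-cadherin of epithelia, had no read in wt of pair 1, where 3 reads are worth 0.117 CPM, and reached 2.48 and 4.09 CPM in the other wt libraries and 0.473, 1.87 and 0.514 CPM in flt3L-/-. Cdh4 stayed at or under 2.40 CPM, and Cdh24 was read at 0.622, 0.698 and 1.08 CPM in wt and at 0.801, 1.65 and 0.791 CPM in flt3L-/-. The other 14 cadherins were not tested and none passed 1.15 CPM in any library, among them Cdh3 (P-cadherin) and Cdh15 (M-cadherin of skeletal muscle). These levels are of a mixed pool of cells, in which fewer cells of a type and less RNA per cell cannot be told apart.

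**Figure D1:**
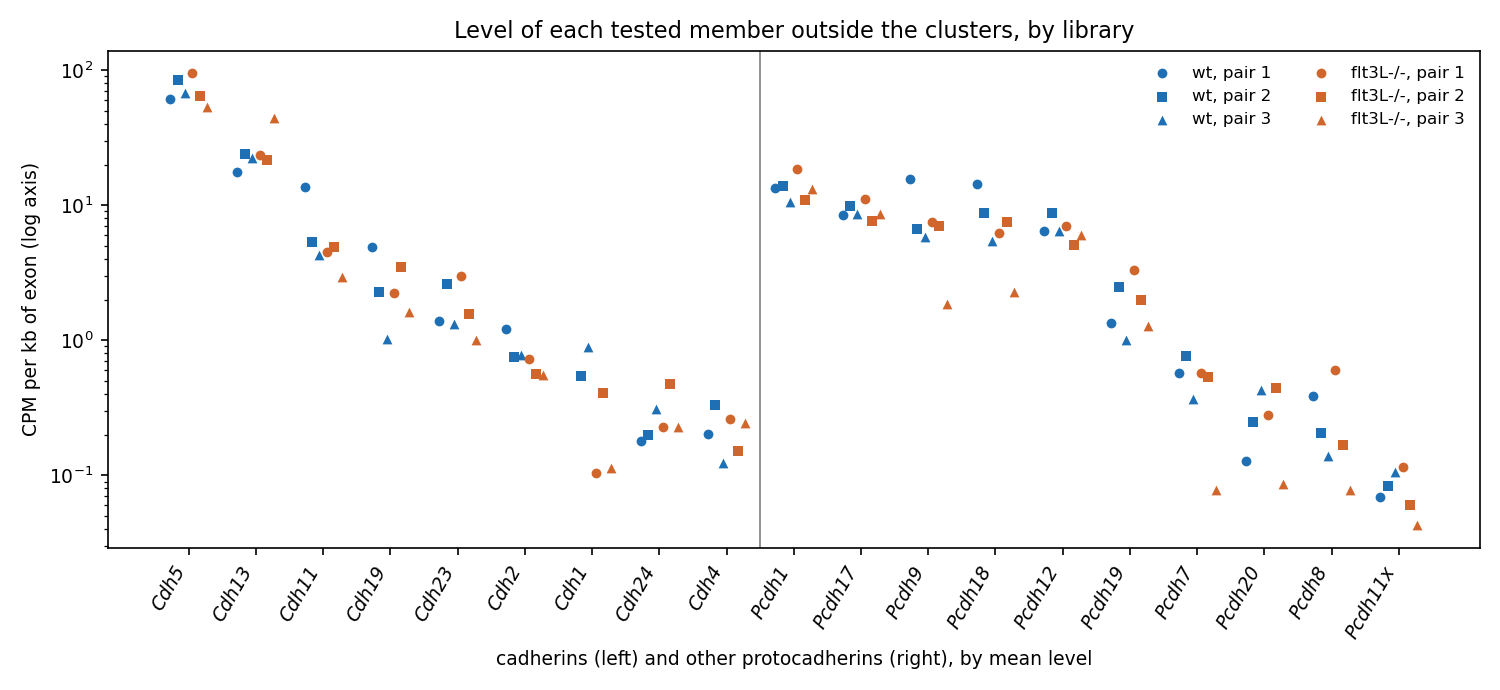
CPM per kb of exon (log axis) of the 19 tested members outside the clusters, cadherins on the left and other protocadherins on the right, with 1 point per library, wt in blue, flt3L-/- in orange and the marker shape giving the pair; the zero of Cdh1 in wt of pair 1 is not drawn. Cdh5 lies above all others in every library, and the flt3L-/- library of pair 3 lies lowest for Pcdh9, Pcdh18, Pcdh7 and Cdh11 but highest for Cdh13.

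Of the 12 other protocadherins, 10 were tested. Pcdh1, which is widely expressed in epithelia and endothelium, was read at 118, 122 and 92.8 CPM in wt and at 165, 96.4 and 115 CPM in flt3L-/-. Pcdh17, a delta-2 protocadherin that binds the WAVE actin regulator, was the steadiest of the abundant ones, at 109, 129 and 112 CPM in wt and 144, 99.8 and 112 CPM in flt3L-/-. Pcdh12, VE-cadherin-2, an endothelial protocadherin, was read at 38.9, 53.4 and 39.0 CPM in wt and at 42.5, 30.8 and 36.7 CPM in flt3L-/-. In each of these 3 genes the groups overlapped, and their levels per kilobase followed the order Pcdh1, Pcdh17 and Pcdh12 with ranges of 10.6 to 18.7, 7.68 to 11.1 and 5.08 to 8.81, each overlapping the next.

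Pcdh18 and Pcdh9, whose promoter windows are printed above, were more uneven. Pcdh18, another delta-2 protocadherin, was read at 76.5, 46.8 and 29.2 CPM in wt and at 33.2, 40.2 and 12.3 CPM in flt3L-/- (ENSMUSG00000037892, chr3:49743296-49757325). Pcdh9, a delta-1 protocadherin, was read at 106, 45.0 and 39.7 CPM in wt and at 51.2, 47.6 and 12.6 CPM in flt3L-/- (ENSMUSG00000055421, chr14:93013410-93890679). Both were highest in wt of pair 1 and lowest in flt3L-/- of pair 3, and in both the groups overlapped. Per kilobase they were close to each other, 9.48 ± 4.46 (SD, n = 3) for Pcdh18 and 9.37 ± 5.43 (n = 3) for Pcdh9 in wt.

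Pcdh19, an X-linked delta-2 protocadherin whose loss causes epilepsy in girls, was read at 14.0, 26.0 and 10.5 CPM in wt and at 34.9, 20.9 and 13.4 CPM in flt3L-/-. Pcdh7 was read at 6.10, 8.18 and 3.91 CPM in wt and at 6.11, 5.68 and 0.830 CPM in flt3L-/-; 21.1% of its exon bases also lie in an antisense transcript, and since the libraries are unstranded those reads cannot be assigned. Pcdh8 was read at 1.75, 0.930 and 0.633 CPM in wt and at 2.73, 0.763 and 0.356 CPM in flt3L-/-, highest in pair 1 and lowest in pair 3 in both groups. Pcdh20 and Pcdh11x stayed at or under 2.42 CPM. Pcdh10 and Pcdh15 did not pass the filter.

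The counts of the alpha and gamma clusters are not separate measurements. Each of the 14 alpha members contains the same 2860 exon bases in 3 blocks, and each of the 21 gamma members the same 2116 bases in 3 blocks, and a read in those exons was counted for every member. The gamma rows therefore had a common floor. In wt the lowest gamma member had 5295, 3951 and 3539 reads and the highest 8829, 6164 and 5472; in flt3L-/- the lowest had 4561, 3361 and 2566 reads and the highest 7463, 5369 and 3823. In every library 17 or 18 of the 21 members lay within 10% of the lowest. The alpha floor was 107, 53 and 45 reads in wt and 39, 55 and 36 in flt3L-/-, and 5 to 9 of the 14 members had exactly the lowest count.

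Reads above the floor were taken as those of a member's own exons. Pcdhgc3, a C-type gamma protocadherin that is also found outside the nervous system, had the most in every library: 3534, 2213 and 1933 in wt and 2902, 2008 and 1257 in flt3L-/- (ENSMUSG00000102918), which was 31.8% to 43.2% of all own reads of the cluster. The B-type gene Pcdhgb6 had 649, 510 and 602 own reads in wt and 788, 415 and 367 in flt3L-/-, and Pcdhgb2 had 615, 617 and 521 in wt and 731, 607 and 410 in flt3L-/-. Per kilobase of own exons both stood near each other, at 8.75 ± 1.06 (SD, n = 3) CPM in wt for Pcdhgb6 and 8.10 ± 0.943 (n = 3) for Pcdhgb2, well under Pcdhgc3.

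Among the A-type genes Pcdhga5 had 397, 268 and 326 own reads in wt and 318, 217 and 94 in flt3L-/-, the largest sum over the 6 libraries but not the largest within flt3L-/-, where Pcdhga4 (284, 210 and 167) and Pcdhga12 (342, 154 and 150) had more in sum. Pcdhga6 had 261, 245 and 102 own reads in wt and 163, 97 and 106 in flt3L-/-. Pcdhga7 had 291, 202 and 98 in wt and 107, 78 and 109 in flt3L-/-, and Pcdhga3 had 225, 121 and 97 in wt and 157, 118 and 90 in flt3L-/-. Groups overlapped in all of these genes. Pcdhga1 and Pcdhga9 had at most 24 own reads in any library.

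Per kilobase of its own exons Pcdhgc3 stood at 29.1 ± 10.2 (SD, n = 3) CPM in wt and 23.7 ± 8.36 (n = 3) in flt3L-/-, in the range of Cdh13. The shared gamma exons stood at 77.3 ± 18 (n = 3) CPM per kb in wt and 64.6 ± 15.4 (n = 3) in flt3L-/-, in the range of Cdh5. Own exons summed over the 21 members gave 82.2 ± 17.7 (n = 3) and 71.9 ± 21.3 (n = 3), that is 1.02 to 1.19 times the shared level in the 6 libraries, so the own and the common exons gave similar levels. Their genotype differences were less alike in pair 1, with 97.2 in wt and 78.4 in flt3L-/- for shared exons and 102.6 and 93.7 for own exons. In the alpha cluster the shared exons stood at 0.919 ± 0.467 (n = 3) CPM per kb in wt and 0.603 ± 0.184 (n = 3) in flt3L-/-, and the summed own exons at 0.986 to 1.65 times the shared level. Pcdhac2, a C-type gene, led there with 141, 50 and 16 own reads in wt and 54, 37 and 5 in flt3L-/-, but Pcdha8 had more, 25, in flt3L-/- of pair 3.

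**Figure D2:**
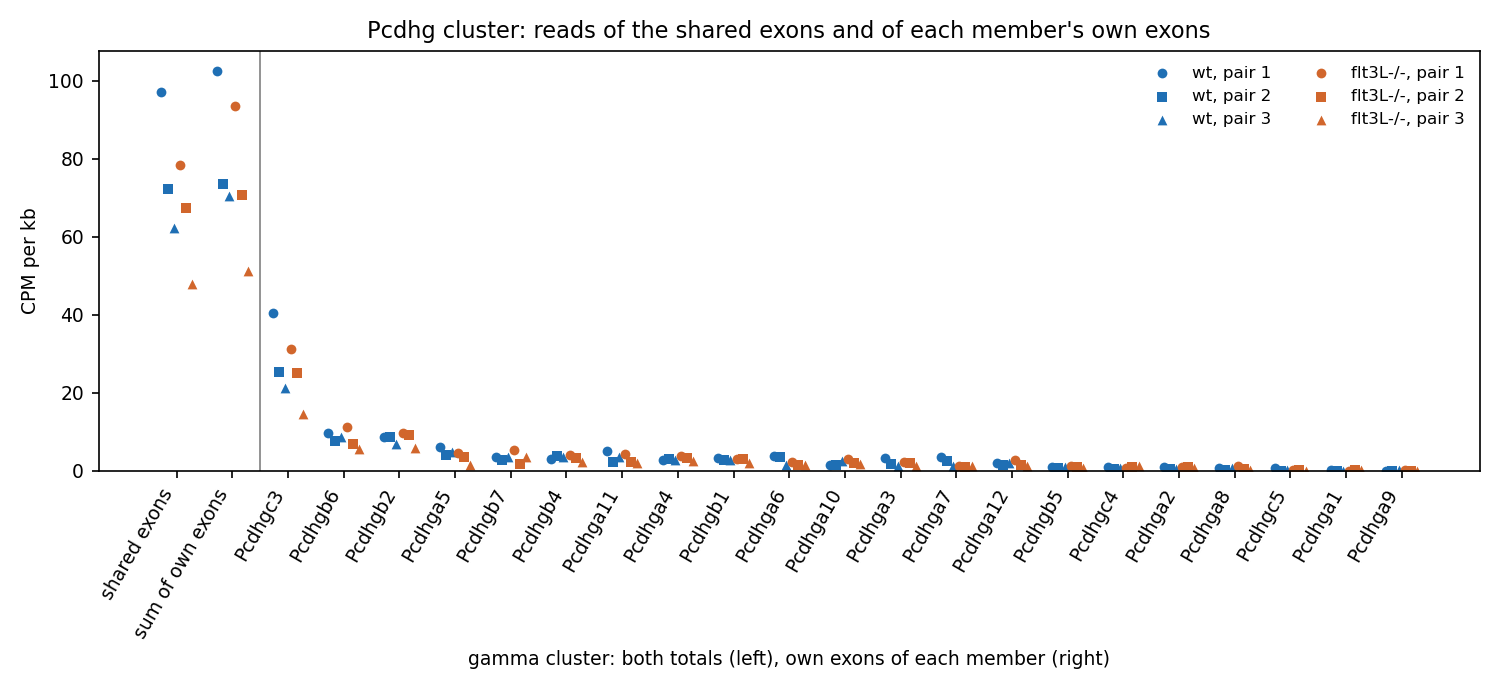
CPM per kb in the gamma cluster, with 1 point per library (wt blue, flt3L-/- orange, marker shape for the pair): the shared exons and the sum of all own exons on the left, and the own exons of each of the 21 members on the right. The shared level and the sum of own levels lie close together in each library, and Pcdhgc3 is the largest single part in all 6.

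The beta genes have no exon common to all of them, and apart from the 3 named below each was counted on its own. Of 22, 19 were tested, and their CPM summed over all 22 to 207, 142 and 119 in wt and 154, 145 and 111 in flt3L-/-. Pcdhb17 led per kilobase with 4.62 ± 1.47 (SD, n = 3) CPM in wt and 4.68 ± 0.10 (n = 3) in flt3L-/-. It was read at 29.4, 18.1 and 17.0 CPM in wt and at 22.0, 22.1 and 21.3 CPM in flt3L-/-. Pcdhb16, Pcdhb20, Pcdhb14 and Pcdhb9 followed, with means between 2.86 and 4.03 CPM per kb, and their libraries overlapped with one another. Pcdhb9 was the least even of these, at 19.1, 5.85 and 4.50 CPM in wt and 10.7, 14.6 and 6.72 CPM in flt3L-/-. In 3 beta genes, exon bases are shared with a neighbour or an antisense transcript: 63.5% of Pcdhb12, 9.67% of Pcdhb21 and 6.88% of Pcdhb22.

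No member passed the test between wt and flt3L-/- after adjustment. In edgeR's quasi-likelihood test with sorting date as a covariate, 0 of the 73 tested members had an adjusted p under 0.05 (smallest 0.973), as did 0 of all 13475 genes tested (0.0%). At an unadjusted p under 0.05 there was 1 member lower in flt3L-/- and 0 higher, where the share over all genes was 2.49% lower and 1.11% higher. DESeq2 gave 3 of 73 members at the unadjusted threshold, which 4.76% of all genes passed, and 0 members after adjustment, where it called 21 of all genes (0.156%). The 1 member was Pcdh18, with a log2 fold change of -0.89 ± 0.26 (SE), an unadjusted p of 0.0192 and an adjusted p of 0.973 by edgeR's test. It was lower in flt3L-/- in each pair, with log2 differences of -1.20, -0.22 and -1.25. DESeq2's 3 members were Pcdh18, Pcdh9 and Cdh11. Without pair 2 the unadjusted threshold was passed by 5 members, Pcdh18, Pcdh9, Cdh11, Cdh13 and Pcdh19, and by 7.47% of all genes. Without pair 1 the unadjusted p of Pcdh18 was 0.105, without pair 3 it was 0.0821, and without the date term 0.145. The paper, using edgeR's quasi-likelihood test with date as a covariate, reported some genes under a false discovery rate of 0.05, none of them a member. It also listed a gene set for homophilic (like-to-like) cell adhesion as lower in flt3L-/-. No gene set was tested here, and the reason for the different calls was not tested.

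Members with the next smallest p were also lower. Pcdh9 had a log2 fold change of -0.88 ± 0.36 (SE), Cdh11 of -0.75 ± 0.32 and Cdh2 of -0.55 ± 0.24, with unadjusted p of 0.0620, 0.0664 and 0.0712 in edgeR's test. Pcdhb11, read at 9.44, 6.05 and 4.61 CPM in wt and at 7.35, 3.35 and 3.08 CPM in flt3L-/-, had -0.60 ± 0.25. Pcdhb8, read at 6.33, 3.49 and 3.80 CPM in wt and at 3.68, 2.80 and 1.94 CPM in flt3L-/-, had -0.69 ± 0.30. The largest positive values were those of Pcdh19, 0.45 ± 0.35, Cdh13, 0.41 ± 0.25, Cdh24, 0.39 ± 0.56, and Pcdhb9, 0.35 ± 0.47, each with an unadjusted p over 0.15. Cdh5 had -0.04 ± 0.25 and Pcdh17 0.01 ± 0.19.

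The median log2 fold change was -0.26 over the tested members and -0.0003 over all genes tested, but the clusters carry this figure. All 21 gamma rows lay between -0.29 and -0.23 and all 14 alpha rows below 0, because each repeats the reads of the shared exons. With each of the 2 clusters as 1 row, 40 rows remained and the median was -0.11. The gamma cluster as a row had a log2 fold change of -0.26 (unadjusted p = 0.0995 by edgeR) and the alpha cluster of -0.53 (unadjusted p = 0.324). After removal of the floor, 12 of 19 testable gamma members lay below 0, from -0.86 to 0.51, and Pcdhgc3 stood at -0.31 with an unadjusted p of 0.106 in edgeR's test. By class, the medians were -0.02 for the cadherins, -0.26 for the clustered and -0.18 for the other protocadherins. The clustered value repeats shared reads too, and it was -0.13 with each of the 2 clusters as 1 row. The beta genes alone had a median of -0.12, with 11 of 19 below 0.

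Direction across the 3 pairs was read the same way. Lower in flt3L-/- in each of 3 pairs were 30 of the 73 tested members, against 11.5% of all genes, and 21 of these 30 were gamma rows; outside alpha and gamma it was 7 of 38. They were Cdh2, Cdh11, Pcdh18, Pcdhb8, Pcdhb11, Pcdhb16 and Pcdhb22. Higher in each of 3 pairs were 0 members, against 14.2% of all genes. No member had its 3 flt3L-/- libraries all above its wt libraries, which 3.53% of genes do. The medians over the members within the pairs were -0.32, -0.09 and -0.37.

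**Figure D3:**
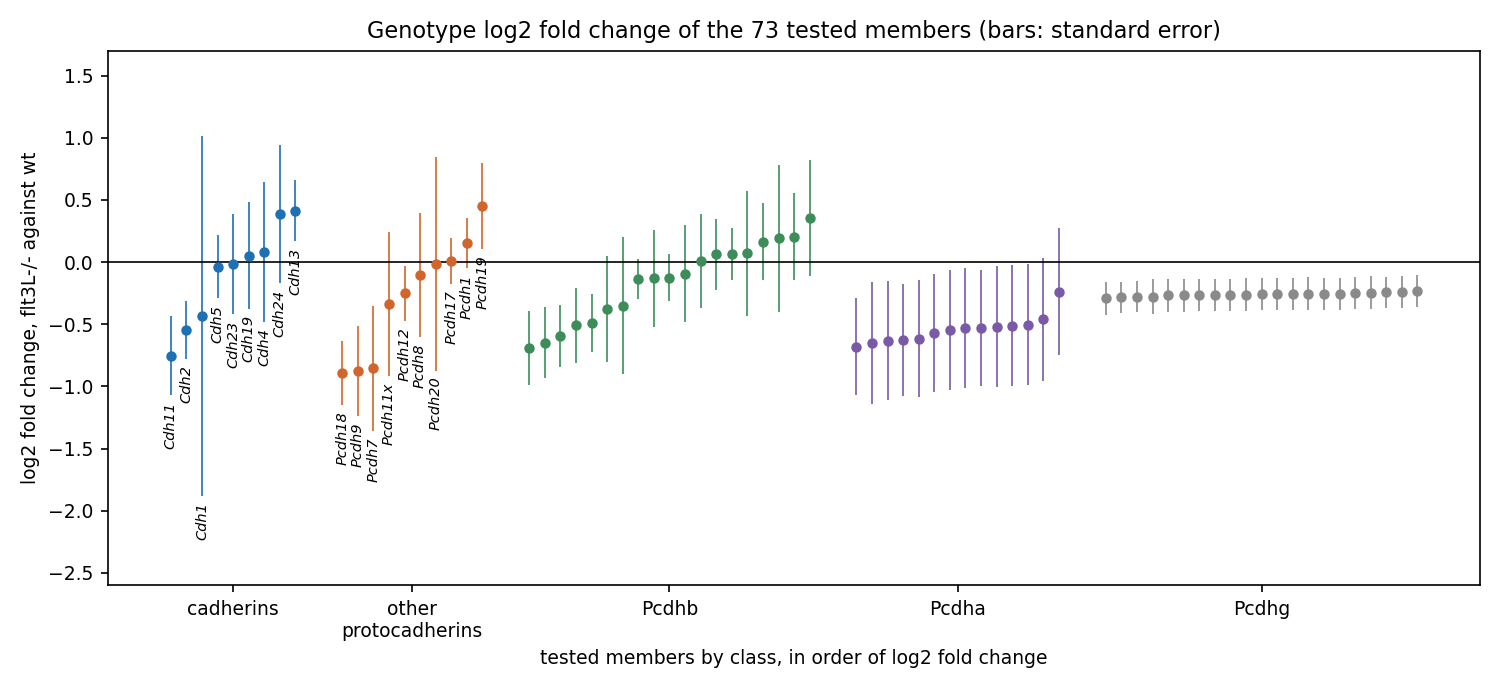
Log2 fold change of flt3L-/- against wt, with its standard error as a bar, for the 73 tested members by class, ordered by value within a class. The gamma values fall in a narrow band between -0.29 and -0.23, whereas cadherins, other protocadherins and beta genes spread to both sides of 0.

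No member passed edgeR's test between sorting days after adjustment. A test of both date terms together in the same fit called 0 of the 73 members after adjustment (smallest adjusted p 0.598 by edgeR) and 25 at an unadjusted p under 0.05, against 8.28% of all genes. Of these 25, 21 were gamma rows, whose unadjusted p ran from 0.0166 to 0.0272 on the same shared reads. With the clusters as 1 row each it was 5 of 40, against 8.12% of all genes: Pcdh18, Pcdh9, Pcdh8, Pcdhb11 and the gamma cluster. DESeq2 called Pcdh18 and Pcdh9 by date after adjustment, a call that 2.99% of all genes received. Pcdhgc3, floor included, was read at 343, 239 and 204 CPM in wt and at 272, 228 and 151 CPM in flt3L-/-. Its pair 1 was highest and its pair 3 lowest in both genotypes. Pcdh18 did not follow this order in flt3L-/-, where it was read at 33.2, 40.2 and 12.3 CPM.

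The within-pair differences of some members were set beside those of cell type markers. The summed CPM of 8 fibroblast markers was 42112, 27033 and 21148 in wt and 20614, 31757 and 9889 in flt3L-/-, with a within-pair log2 difference of -1.03, 0.23 and -1.10. Gsn and Dcn made up most of this sum, with 26320 and 10542 CPM in wt of pair 1. In pair 2, Pdgfra, Col1a1 and Col1a2 differed by -0.04, -0.40 and -0.40, and the other fibroblast markers were above 0. Cdh11 differed by -1.61, -0.12 and -0.54, Pcdh9 by -1.05, 0.08 and -1.66, and Pcdh18 by -1.20, -0.22 and -1.25. All 8 fibroblast markers had a negative log2 fold change (median -0.65), 2 of them at an unadjusted p under 0.05, and none was at 0 in any library. Mural markers, those of pericytes and smooth muscle, varied alike: the sum of 9 was 913, 448 and 498 CPM in wt and 566, 504 and 276 CPM in flt3L-/-, a within-pair log2 difference of -0.69, 0.17 and -0.85, with 8 of 9 log2 fold changes negative, 2 at an unadjusted p under 0.05, and none at 0 in any library. Of all 13475 genes tested, 6742 lay below 0, and 2.49% were lower at an unadjusted p under 0.05. Cdh11, Pcdh9 and Pcdh18 were picked after their values were seen, and the part of fibroblast or mural content in them was not tested.

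Endothelial markers took another course. The sum of 10 of them was 7195, 8793 and 8531 CPM in wt and 9245, 7107 and 9405 CPM in flt3L-/-, a within-pair log2 difference of 0.36, -0.31 and 0.14, and none was at 0 in any library. Kdr made up the largest part of this sum, with 3383 CPM in wt of pair 1. In pair 3, Kdr and Vwf differed by -0.14 and -1.20, and the other endothelial markers were above 0. The log2 fold changes were positive for 8 of the 10 and negative for 2 (median 0.17), none at an unadjusted p under 0.05 in edgeR's test. Of all 13475 genes tested, 6733 lay above 0. Cdh5 differed by 0.64, -0.39 and -0.36, and Cdh23 by 1.12, -0.75 and -0.39. Pcdh1 differed by 0.48, -0.34 and 0.31, Pcdh19 by 1.32, -0.32 and 0.36 and Cdh13 by 0.42, -0.16 and 0.98. All were above 0 in pair 1 and below 0 in pair 2, as was Pcdh17, and they parted in pair 3, where Cdh13 was higher in flt3L-/- and Cdh5 lower. These genes were picked after their values were seen, and the part of endothelial content in them was not tested.

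Markers of other cells were read as well. The 7 macrophage markers summed to 18 to 136 CPM in wt and 23.1 to 96.5 CPM in flt3L-/-, with Mrc1 at 0 in some libraries. The 7 lymphocyte markers summed to 42.2 to 173 and 24.8 to 81.5 CPM, with Ms4a1 at 0 in some libraries. The 7 mesothelial markers, with Krt8 at 0 in some libraries, summed to 22.1 to 67.6 and 38.4 to 58.9 CPM, and the 7 cardiomyocyte markers to 101 to 145 and 153 to 184 CPM. The 6 glial markers summed to 10.9, 5.23 and 4.61 CPM in wt and 4.69, 10.3 and 5.85 CPM in flt3L-/-, with within-pair log2 differences of -1.22, 0.98 and 0.34 beside -1.12, 0.61 and 0.65 for Cdh19; Sox10 and Foxd3 were at 0 in some libraries. The part of glial content in Cdh19 was not tested.

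**Figure D4:**
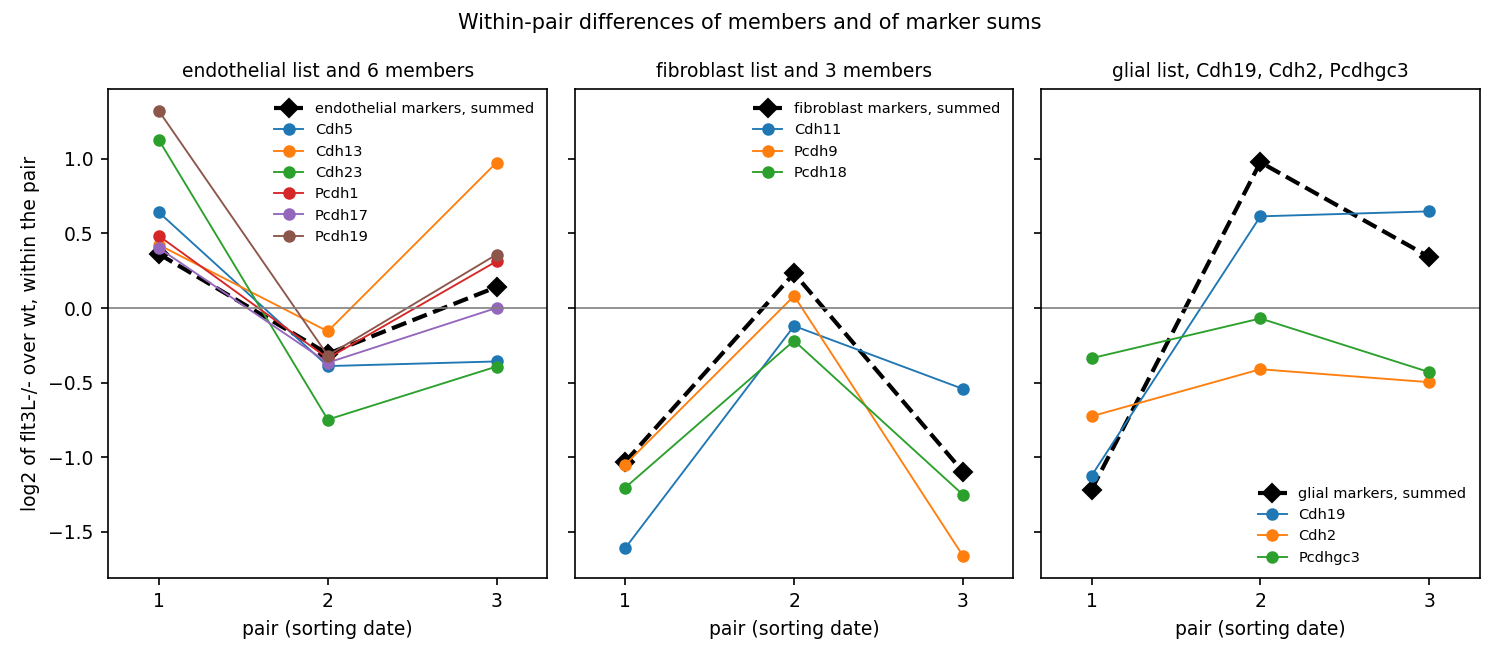
Log2 ratio of flt3L-/- to wt within each pair for members (coloured points) and for the summed CPM of a marker list (black diamonds, dashed); lines only join the values of 1 gene or list. Cdh11, Pcdh9 and Pcdh18 are near 0 in pair 2 and negative in pairs 1 and 3, as the fibroblast sum is in pairs 1 and 3, and Cdh5 and 5 other members are positive in pair 1 and negative in pair 2.

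The partners of the cadherins at the membrane differed widely in level, and none passed the test. Nectin1 was the lowest of those tested, at a mean of 0.807 CPM in wt and 0.716 CPM in flt3L-/-. Ctnna2 and Ctnnd2 did not pass the filter, and the partners given below with their levels are abundant ones. Of 24 catenins, nectins, phosphatases and other partners found in the table, 22 were tested, 0 were called after adjustment and 0 had an unadjusted p under 0.05; 11 lay below and 11 above 0, with a median log2 fold change of 0.0016. Ctnnb1, β-catenin, stood at 719 ± 87.6 (SD, n = 3) CPM in wt and 808 ± 209 (n = 3) in flt3L-/-. Ctnna1, α-catenin, stood at 810 ± 60.1 and 970 ± 183 CPM, and Ctnnd1, p120-catenin, at 174 ± 14.3 and 183 ± 33.4 CPM. Jup, plakoglobin, stood at 707 ± 130 and 767 ± 39.9 CPM. Ptprb, the phosphatase VE-PTP that binds VE-cadherin, stood at 1451 ± 133 and 1279 ± 397 CPM, and the difference between its means was smaller than the SD of the flt3L-/- libraries.

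Most of the more distant relatives lay below the filter. Of 23 desmosomal cadherins, calsyntenins and members of the Fat, Dachsous, Celsr and Cdhr families, 8 were tested, 0 were called after adjustment and 7 lay below 0, with a median log2 fold change of -0.26. Of all 13475 genes tested, 6742 lay below 0, and 2.49% were lower at an unadjusted p under 0.05. Fat4, a giant cadherin that binds the Dachsous cadherins of the next cell, was the 1 of these 8 relatives with an unadjusted p under 0.05 for genotype, with a log2 fold change of -0.46 ± 0.15 (SE). Its unadjusted p was 0.0266 and its adjusted p 0.973 by edgeR's quasi-likelihood test. It was read at 65.1, 50.4 and 40.6 CPM in wt and at 55.2, 33.8 and 27.4 CPM in flt3L-/-, lower in flt3L-/- in 3 of 3 pairs, with overlapping groups. Of the desmosomal genes only Dsc2 was tested, and Dsg1a, Dsg3, Dsc1 and Dsc3 were at 0 in at least 1 library.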

How the data were processed

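RNA was sequenced from 3 wt and 3 flt3L-/- sorts of cardiac side population cells with the unstranded SMART-Seq v4 kit. The deposited values are raw read counts per Ensembl gene, which the authors made by mapping single-end reads to mm10 with STAR 2.5.2a (named in the submitters' processing notes), placing a read with several equally good locations in 1 of them at random, and counting with QuasR the reads that start in an exon of a gene, so that a read in an exon held by several genes counted for each. Groups came from the source names and pairs from the sorting date.

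Protein-coding genes (GENCODE M21, GRCm38) with a CPM above 1 in at least 2 libraries (13475) were tested in R 4.3.3 with edgeR 4.0.16 (glmQLFit and glmQLFTest, TMM factors, genotype and sorting date as terms), with Benjamini-Hochberg adjustment over all of them. The dates pair the libraries by the labels, and same-date libraries deviated together (correlations of 0.180, 0.104 and 0.116), while libraries of different dates ranged from -0.354 to 0.247, so the deviations alone do not single out the dates. Libraries are pools of mice, so p-values measure the spread left between pools after genotype and date. That spread is moderated across genes and includes sort and library preparation, and the spread between single mice is not measured. Own reads of an alpha or gamma member were its count less the lowest count of its cluster. Alternatives were other scalings and filters, DESeq2 1.42.0, no date term, each pair left out, each cluster as 1 row and, chosen after seeing the data, clusters less their floor. The test was checked on simulated data. Depth was 24370913 to 31145519 reads per library, at which 3 reads are worth 0.109 to 0.127 CPM; counting error only is covered by this figure.

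Any tested member could be named. Values in every library (own reads for gamma members other than Pcdhgc3) were given for the up to 5 members of a class highest per kilobase, and for those with the smallest unadjusted p by genotype and by date. The members and all gene lists were chosen with earlier results of these data known. Of the marker lists, 2 genes are not reported here and were left out of the sums.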

Additional observations from a re-analysis of the deposited data

Results flagged for a closer look

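Pcdhgb8 carries a matching symbol but is annotated as a polymorphic pseudogene and was left out of every comparison. It had 5332, 3970 and 3586 reads in the wt libraries and 4587, 3376 and 2584 in the flt3L-/- libraries, the lowest being 2584 reads, far above the 3 reads that a count of 0 allows. It was singled out because a signal appeared in a gene that the comparisons did not use. It contains the 2116 shared bases of the gamma cluster, and above the lowest gamma member it had 37, 19 and 47 reads in wt and 26, 15 and 18 in flt3L-/-.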

How the results depend on the processing

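Of 25 named members, 16 of 365 alternative log2 fold changes reversed sign, in 9 genes, and the other 349 kept their direction and stayed without an adjusted call. With a pair left out, Cdh5 ran from -0.37 to 0.13, Cdh19 from -0.27 to 0.63, Cdh23 from -0.57 to 0.35, Pcdhb17 from -0.068 to 0.31, Pcdh1 from -0.012 to 0.38, Pcdh17 from -0.18 to 0.18, Pcdhb9 from -0.16 to 0.95 and Cdh1 from -1.64 to 0.90, where Cdh1 did not pass the filter in 1 of the 3 fits. Pcdh17 was -0.028 with library size only, and Pcdhgb2 0.0023 once the shared reads were removed. The cause was not tested. Without the replicate block, that is without the pairing by date, Cdh19 was -0.16 and Cdh23 0.067.

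The count of members with an unadjusted p under 0.05 for genotype (1) was 3 with DESeq2 (Cdh11, Pcdh18 and Pcdh9; 4.76% of all genes), 3 with no filter (3.11%), 4 with all biotypes (Pcdh18, Pcdhb8, Pcdhb11 and Pcdhb22; 3.70%) and 0 with no replicate block (1.94%). It ran from 0 to 5 with a pair left out. Without pair 2 it was 5 (Cdh11, Cdh13, Pcdh18, Pcdh19 and Pcdh9), when 7.47% of all genes passed, and without pair 1 or pair 3 it was 0. The count after adjustment stayed at 0 in all alternatives. By date, the adjusted count was 2 with DESeq2 and 0 otherwise, and the unadjusted count (25) was 5 with the clusters as 1 row each, 7 with the shared reads removed (8.12% of all genes) and from 0 to 32 with a pair left out, namely 7 when pair 1 was dropped (5.67%), 32 when it was pair 2 (14.4%) and 0 when it was pair 3 (5.25%). The median log2 fold change over the members was -0.11 with the shared reads removed and ran from -0.36 to -0.21 with a pair left out, that of the cadherins from -0.33 to 0.12 and that of the other protocadherins from -0.66 to 0.04. The fit had 2 residual degrees of freedom, and depth limits most the members at low level, such as Cdh1, Pcdh8 and Pcdh20, which rest on few reads.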
